A study of Mus musculus with 16 samples.

Results

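The 42 genes described here copy DNA, load and drive the machinery that does so, or supply its deoxynucleotides, and they were followed in mouse Th17 cells, the helper T cell class that makes IL-17. They are a named list taken by function and not by a threshold on these data, but chosen with earlier results of these data known. All 42 were found by symbol among the 15571 genes of the count table, and all 42 were among the 14985 genes tested. Naive CD4 T cells, sorted from the spleens and lymph nodes of mice whose PDH alleles were flanked by loxP sites, were driven to the Th17 fate for 3 days on plate-bound anti-CD3 (5 µg/mL) with anti-CD28 (1 µg/mL), IL-6 (30 ng/mL), TGFβ (2 ng/mL) and anti-IFNγ (5 µg/mL). PDH, pyruvate dehydrogenase, is the mitochondrial complex that turns pyruvate into acetyl-CoA, and sodium acetate is another source of acetyl-CoA for cells. The 16 libraries formed 4 groups of 4. KO acetate cells carried CD4-Cre and grew with 10 mM sodium acetate, WT acetate cells had the same floxed alleles without Cre and grew with 10 mM sodium acetate, KO untreated cells carried CD4-Cre without acetate, and WT untreated cells had neither. CD4-Cre acts from T cell development in the thymus onward, so recombination preceded the culture. No group carried Cre without the floxed alleles, and none received sodium without acetate. The labels do not say that the 4 libraries of a group came from separate mice or cultures, so the p-values rest on a spread between libraries that may be technical.

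Each S phase copies the genome once. In G1 the origin recognition complex, CDC6 and CDT1 load rings of the MCM helicase at origins, and cyclin E with its kinase then helps CDC45 and the GINS complex to switch the rings on. Primase and the DNA polymerases follow the opened fork, and the RFC complex loads a sliding clamp, PCNA. E2F factors raise the transcription of most of these genes as cells leave G1, and activated T cells, which divide fast, run this programme strongly.

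The words bound by E2F factors are shown because they are a feature the list was not chosen on. RefSeq promoter windows on GRCm38.p6 were at hand for 34 of the 42 genes, and the 250 bases before each start were searched on both strands for TTTCCCGC, TTTCGCGC, TTTGCCGC and TTTGGCGC and for CCAAT, the word of NF-Y. At least 1 E2F word stood in 9 of the 34 genes (26.5%), against 3.88% of the 10620 genes of the count table with a window and 2.16% of 27025 genes in all. CCAAT stood in 58.8% of the 34 genes, 40.3% of the count table's genes and 37.5% of all. Median GC content was 60.5% in the 34 genes, 59.6% in the count table's genes and 52.4% in all. A match is a run of letters and no evidence of binding. The stretches below come from 5 of these 9 genes, written 5′ to 3′ on the strand of the gene, with the E2F words in capitals:
Mcm5: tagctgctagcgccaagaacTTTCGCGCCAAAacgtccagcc
Mcm6: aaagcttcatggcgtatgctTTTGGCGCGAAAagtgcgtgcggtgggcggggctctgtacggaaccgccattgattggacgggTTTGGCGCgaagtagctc
Orc1: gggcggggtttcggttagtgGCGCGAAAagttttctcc
Cdc6: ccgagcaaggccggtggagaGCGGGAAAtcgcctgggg
Uhrf1: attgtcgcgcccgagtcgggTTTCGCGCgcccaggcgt
The Mcm5 stretch is chr8:75109336-75109377 on the plus strand, and its 12 capitals hold TTTCGCGC and, overlapping it on the other strand, TTTGGCGC. The Mcm6 stretch is chr1:128359735-128359835 on the minus strand, with 3 words, of which the first pair overlap in the same way. The Orc1 stretch is chr4:108579407-108579444, the Cdc6 stretch chr11:98907993-98908030 and the Uhrf1 stretch chr17:56304108-56304145, all on the plus strand. The other genes with a word were Mcm7, Gins3, Rfc3 and Pola1. Of the 9 genes, 6 were lower in KO acetate than in KO untreated cells (Mcm5, Mcm6, Mcm7, Cdc6, Rfc3 and Uhrf1), 1 was higher (Orc1) and 2 were not called (Gins3 and Pola1). Of all 34 genes with a window, 17 were lower in that comparison, 4 higher and 13 not called. Over all genes tested, 21.6% were called lower and 22.1% higher. Whether the words go with the difference was not tested.

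Library totals lay between 24.57 and 33.72 M estimated counts. In 4 libraries 1 gene held over 3% of all counts: 8% in KO acetate 2, 9.14% in KO untreated 1, 3.27% in KO untreated 2 and 5.89% in WT untreated 1. Counts over the list and the calls of some genes are also given without them. That leaves groups of fewer than 4, and KO untreated loses the most libraries. Whether calls lost in this way come from the smaller groups was not tested. Pdha1, the gene of the catalytic alpha subunit of PDH, lay at 232.2 to 262.4 CPM in KO acetate, 250.4 to 273 in WT acetate, 209.6 to 235.5 in KO untreated and 234.4 to 263.4 in WT untreated libraries. Its KO and WT groups differed without a call (adjusted p = 0.597 with acetate and 0.076 without). The labels name neither the deleted subunit nor the exons, so these gene totals do not check the genotype. Markers of CD4 and Th17 cells (6 of 6 tested) summed to 2000 to 3170 CPM in KO acetate, 1700 to 2470 in WT acetate, 1110 to 1340 in KO untreated and 1260 to 1620 in WT untreated libraries. The markers of CD8 T cells (2 of 2) summed to 13.7 to 18.2, 13.1 to 17.2, 5.13 to 8.35 and 9.08 to 11.2 CPM in the same order. They were higher in both acetate groups than in the untreated ones, and lower in KO than in WT libraries without acetate, while with acetate the genotypes overlapped. The B cell markers (3 of 3) stayed at or below 2.43 CPM and the macrophage marker Lyz2 at or below 1.9 CPM in every library. The part of such cells in the results below was not tested.

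Values are CPM, counts scaled to a common library size by TMM, which is not divided by gene length, so that levels are compared between groups and not between genes. A gene is called higher or lower where the edgeR quasi-likelihood test, adjusted over all 14985 genes, gave an adjusted p under 0.05. In bulk RNA a lower value may stand for fewer cells in S phase or for less RNA per cell, and these cannot be told apart.

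The list as a whole was lowest in KO acetate libraries and highest in WT untreated ones. Summed over the 42 genes, CPM averaged 5982 ± 236 in KO acetate, 6380 ± 431 in WT acetate, 6962 ± 347 in KO untreated and 7147 ± 245 in WT untreated libraries (SD, n = 4 each). Measured per gene on the log2 scale against the WT untreated mean, the average over the list was −0.236 ± 0.065 in KO acetate, −0.146 ± 0.091 in WT acetate and −0.080 ± 0.057 in KO untreated libraries (SD, n = 4 each). The 4 KO acetate libraries lay at −0.329, −0.235, −0.185 and −0.197. Those of WT acetate lay at −0.244, −0.197, −0.043 and −0.101, so that replicates 3 and 4 of this group overlapped the KO untreated libraries, which spanned −0.149 to −0.010. No KO acetate library reached the range of KO untreated or of WT untreated (−0.034 to 0.064). In the order KO acetate, WT acetate, KO untreated and WT untreated, neighbouring groups overlapped and the others did not.

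**Figure D1:**
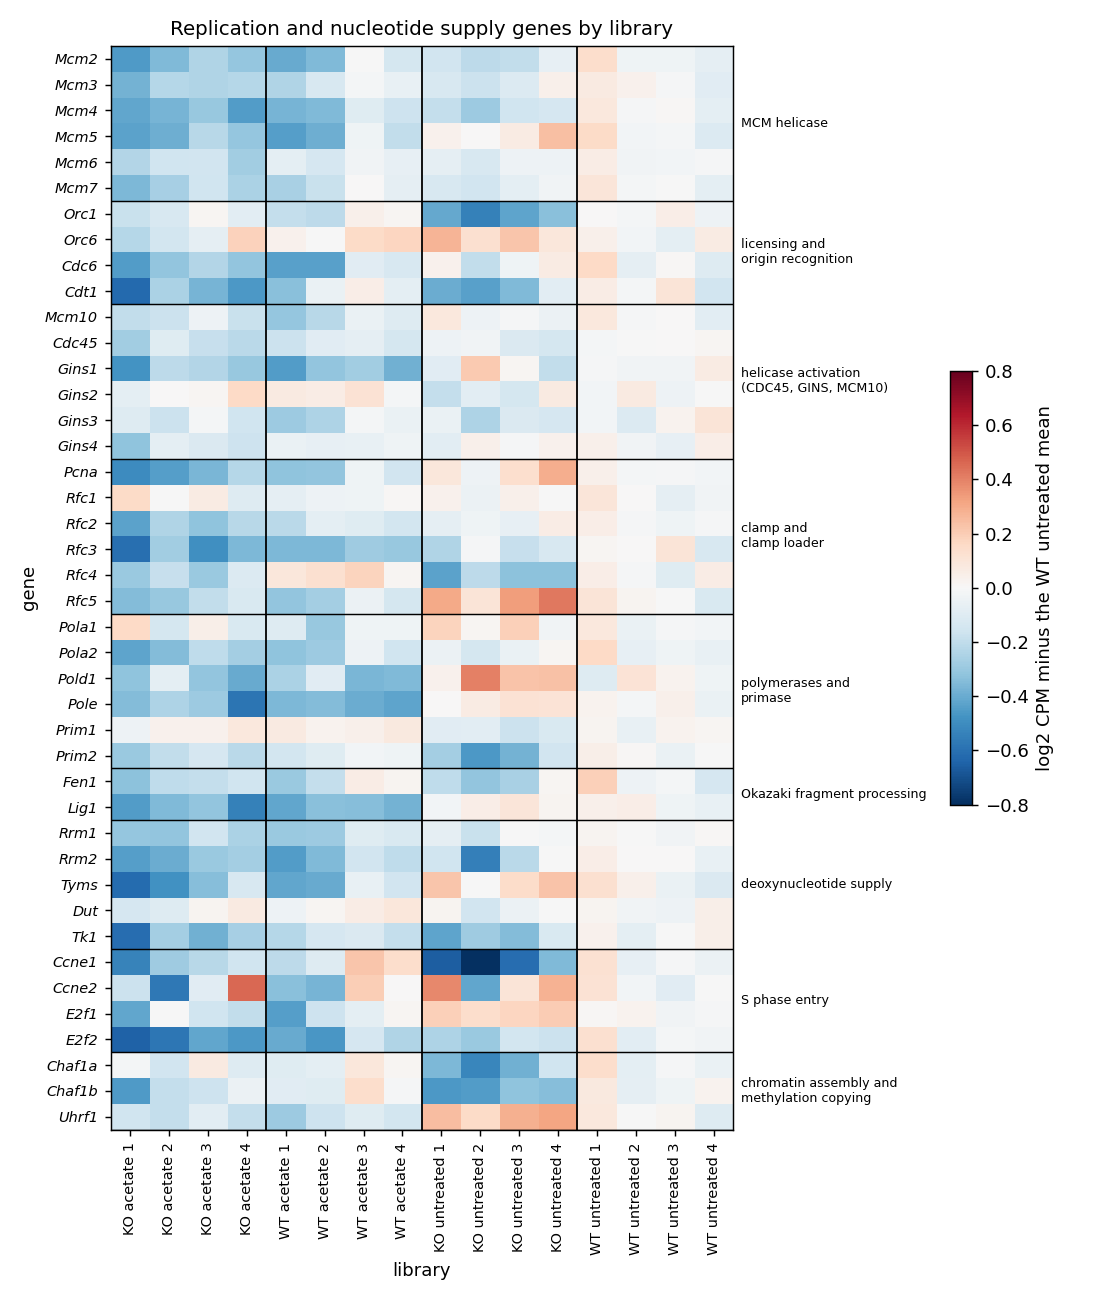
Heat map of the log2 CPM of each of the 42 genes (rows, by role) in each of the 16 libraries (columns), minus the gene's mean in WT untreated libraries; red is higher and blue lower. The KO acetate columns hold most of the blue, and WT acetate replicates 3 and 4 are paler than 1 and 2. Some rows, among them Orc1, Ccne1 and Chaf1a, are bluest in KO untreated.

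Between KO acetate and WT untreated cells, 26 of the 42 genes were lower (61.9%) and 0 higher, where 13.5% of all genes tested were called lower and 12.9% higher. The median log2 fold change of the list was −0.25, beside 0.015 over all genes. At an unadjusted p under 0.05, 32 of the 42 genes were lower and 0 higher, with no count over all genes at that threshold. DESeq2 called 29 of the 42 lower and 0 higher, beside 2297 lower and 2080 higher of 14980 genes. With library totals as the only scaling the list's count fell to 17 lower, and of all called genes 1910 were then higher and 1254 lower, beside 1935 and 2019. Without the 4 libraries in which 1 gene held over 3% of counts, 21 of the 42 genes were lower and 0 higher, with a median of −0.244. Of 15374 genes, 1687 were then lower and 1308 higher. In 27 of the 42 genes every KO acetate library lay below every WT untreated one, which held for 14.2% of all genes. Among the 7059 genes at least as abundant as the least abundant of the 42 (mean 20.5 CPM), 21.8% were called lower.

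Acetate lowered more of the list in KO cells than it raised. KO acetate against KO untreated gave 22 genes lower (52.4%) and 4 higher (9.52%), beside 21.6% and 22.1% of all genes. The list's median was −0.165, and that of all genes −0.009. Of the 7059 more abundant genes, 25.7% were lower. In 20 of the 42 genes every KO acetate library lay below every KO untreated one, as in 18.7% of all genes. Library totals as the only scaling changed these counts to 10 lower and 8 higher with a median of −0.064, while the split of all called genes moved to 4229 higher and 2085 lower, from 3314 and 3236, and the median of all genes to 0.095. Without the 4 libraries in which 1 gene held over 3% of counts, 19 of the 42 genes were lower and 2 higher. Of 15374 genes, 2637 were then lower and 2509 higher. Of the 26 calls, 17 stood on leaving out each single library in turn.

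In WT cells acetate lowered 11 of the 42 genes (26.2%) and raised 0, beside 7.55% of all genes called lower and 7.89% called higher. The median was −0.141, beside 0.003 over all genes, and 11.3% of the more abundant genes were lower. In 13 of the 42 genes every WT acetate library lay below every WT untreated one, as in 10.7% of all genes. Unadjusted, 21 of the 42 genes were lower and 0 higher, with no count over all genes at that threshold. DESeq2 called 14 of the 42 lower and 0 higher, beside 1352 lower and 1412 higher of 14980 genes. Single libraries decide much of the count of 11: it was 17 without WT acetate 3, 5 without WT acetate 1, and 6 without each of WT acetate 2, WT untreated 1, WT untreated 2 and WT untreated 3. It was 7 without the libraries in which 1 gene held over 3%, beside 901 of 15374 genes called lower. With library totals as the only scaling it was 5, and all called genes split into 1196 higher and 558 lower, beside 1183 and 1132.

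Without acetate, KO cells had some of the list lower and some higher. KO untreated against WT untreated gave 10 genes lower (23.8%) and 3 higher (7.14%), beside 18.6% and 18% of all genes. Of the 7059 more abundant genes, 27.4% were lower and 15.4% higher, so the number lower was near the background. In 12 of the 42 genes every KO untreated library lay below every WT untreated one, as in 18.2% of all genes. The median was −0.068, beside 0.014 over all genes. Without the 4 libraries named above, 4 genes were lower (Orc1, Ccne1, Rfc4 and Prim2) and 2 higher (Uhrf1 and Rfc5). Of 15374 genes, 1784 were then lower and 1577 higher, so neither share of the list exceeded that of all genes. Library totals as the only scaling turned the split of all called genes from 2699 higher and 2782 lower to 1914 and 3217.

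With acetate present, KO against WT cells gave 1 gene lower (2.38%) and 0 higher, beside 0.514% and 0.487% of all genes. Unadjusted, 13 of the 42 genes were lower and 0 higher, with no count over all genes at that threshold. DESeq2 called 3 of the 42 lower and 0 higher, beside 434 lower and 317 higher of 14980 genes. In 5 of the 42 genes every KO acetate library lay below every WT acetate one, as in 4.86% of all genes. The median was −0.076, beside 0.007. Of all genes, 150 were called, 73 higher and 77 lower, and 28 and 50 with library totals as the only scaling. That count rests on single libraries, since it was 661 without KO acetate 2, 371 without KO acetate 4, 22 without KO acetate 1, 24 without KO acetate 3, 59 without WT acetate 2, 21 without WT acetate 3 and 42 without WT acetate 4. The interaction, by how much the effect of acetate in KO cells exceeded its effect in WT cells, was called for 2 of the 42 genes, Orc1 higher and Rfc5 lower, beside 6.37% of all genes higher and 5.54% lower. These comparisons share groups, so a gene that is extreme in 1 group appears in several of them.

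**Figure D2:**
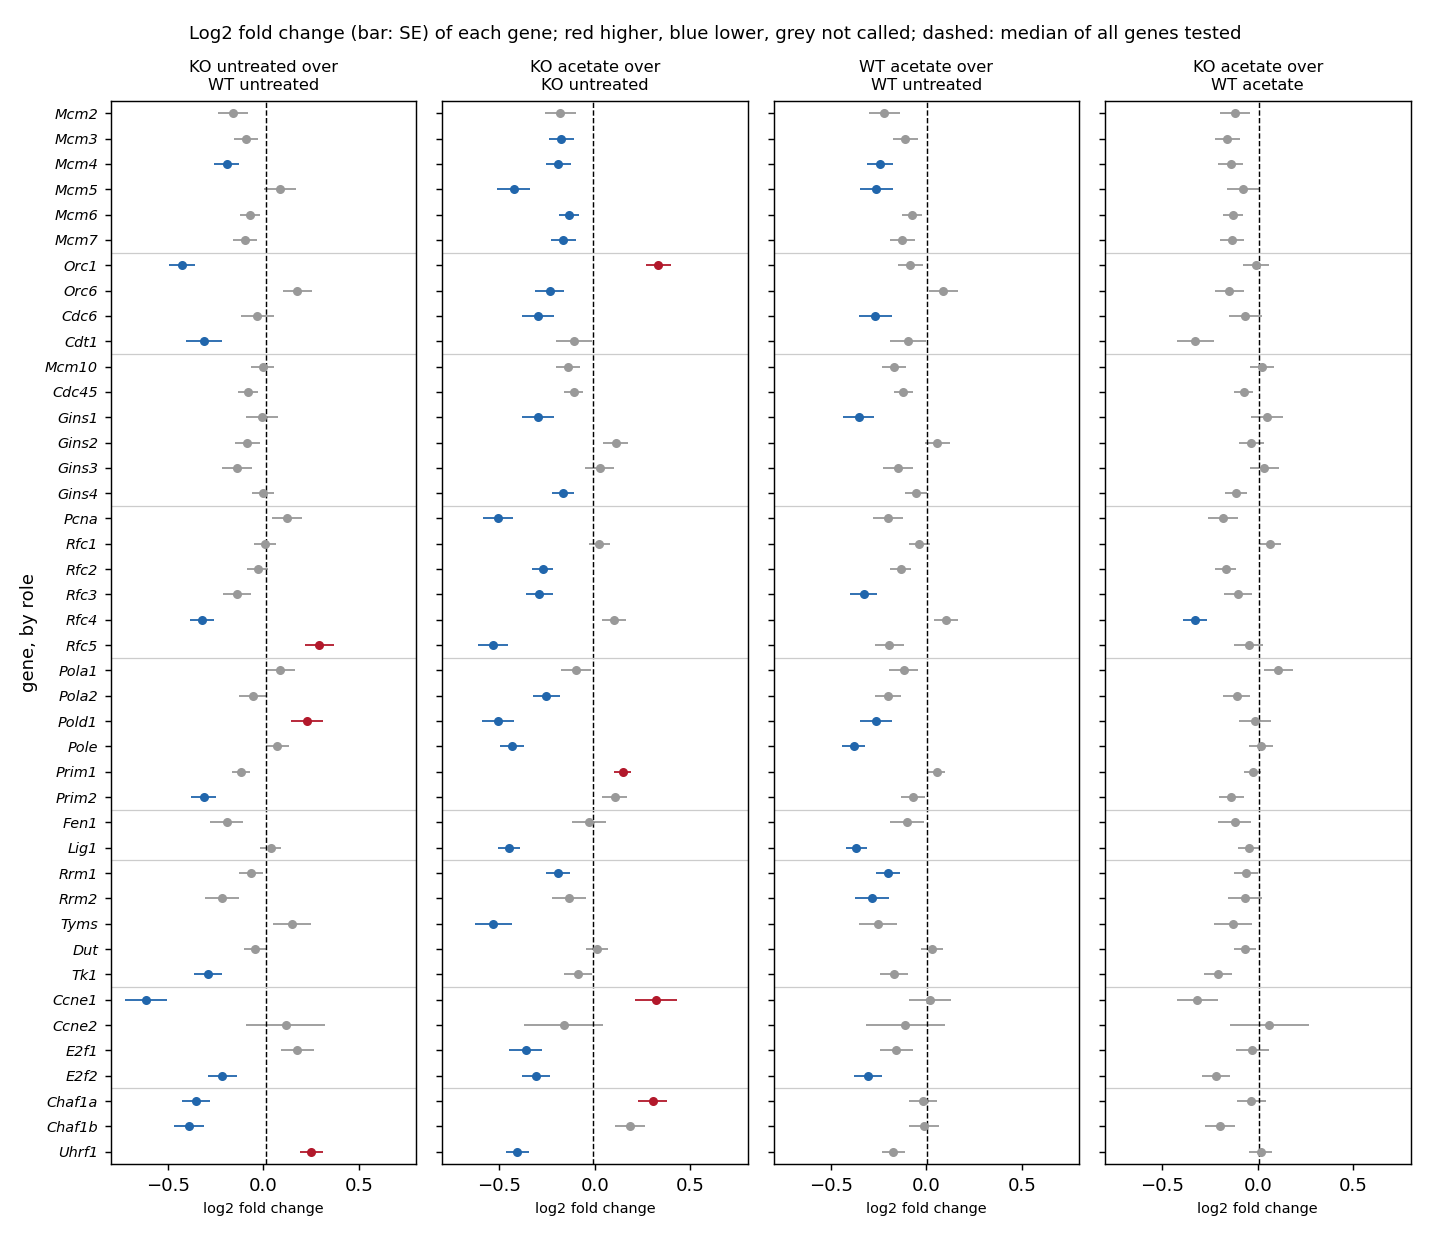
Log2 fold change of each gene (rows, by role) with its SE in each comparison (panels); red points are called higher, blue lower and grey not called, and the dashed line is the median of all genes tested. Most points lie left of the dashed line in every panel, and all but Ccne1 in the untreated comparison lie within 1.5-fold.

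The 6 subunits of the MCM helicase showed small differences. All 6 were lower in KO acetate than in WT untreated cells, 5 in KO acetate than in KO untreated, 2 in WT acetate than in WT untreated and 1 in KO untreated than in WT untreated. In the same order, 13.5%, 21.6%, 7.55% and 18.6% of all genes were called lower, so the last count (16.7% of the 6) was near the background. Mcm4 had 259.2, 267.3, 280.8 and 253.5 CPM in KO acetate, 267, 270.7, 324 and 308.4 in WT acetate, 302.9, 282.6, 310.2 and 315.1 in KO untreated, and 366.4, 343.7, 347.3 and 326.9 in WT untreated libraries. Each KO acetate library lay below all 8 untreated ones, and WT acetate overlapped KO untreated. Against WT untreated, Mcm4 fell by 0.38 in KO acetate (SE 0.067, adjusted p = 0.000485), by 0.24 in WT acetate (SE 0.067, adjusted p = 0.0193) and by 0.19 in KO untreated cells (SE 0.067, adjusted p = 0.0302), all on the log2 scale. The call for KO untreated was lost without any of KO untreated 1, 2 and 3 and WT untreated 1, 2 and 3 (adjusted p up to 0.104), and that for WT acetate without WT acetate 1, WT acetate 2 or WT untreated 1 (up to 0.0775). Mcm5, whose promoter stretch carries overlapping E2F words, averaged 279 CPM in KO acetate and 374.2 CPM in KO untreated libraries, a log2 fold change of −0.42 (SE 0.086, adjusted p = 0.000544). Its level in KO untreated libraries, 353.2 to 415.7 CPM, overlapped that of WT untreated libraries, 325.8 to 390.5 CPM. Of the other subunits in KO acetate against KO untreated, Mcm3 (−0.18), Mcm6 (−0.13) and Mcm7 (−0.17) were called with adjusted p between 0.0346 and 0.0441, and these calls, like that of Mcm4, were lost with library totals as the only scaling and without 4 to 6 single libraries each. Mcm2 differed by −0.18 without a call (adjusted p = 0.0744).

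The licensing genes did not move as 1 group. Orc1, the ATPase subunit of the origin recognition complex whose level changes through the cell cycle, had 51.84, 53.75, 59.34 and 55.29 CPM in KO acetate, 51.32, 50.63, 60.32 and 59.37 in WT acetate, 44.18, 40.34, 43.85 and 46.46 in KO untreated, and 58.76, 58.04, 60.97 and 56.94 in WT untreated libraries. The KO untreated group stood alone below the others, and KO acetate overlapped both WT groups. Orc1 was lower in KO untreated than in WT untreated cells (log2 fold change −0.42, SE 0.068, adjusted p = 9.87e-05) and higher in KO acetate than in KO untreated cells (0.33, SE 0.068, adjusted p = 0.000586), and both calls stood in every alternative run. Its acetate effect was larger in KO than in WT cells by 0.42 (SE 0.096, adjusted p = 0.00848), a call that stood on leaving out each library in turn and missed without the libraries in which 1 gene held over 3% of counts (0.38, adjusted p = 0.0718). Orc6, another subunit, went the other way without acetate, at 80.35 to 91.38 CPM in KO untreated and 71.52 to 79.07 CPM in WT untreated libraries, which do not overlap, but without a call (0.18). In KO acetate it was lower than in KO untreated cells (−0.24, adjusted p = 0.0175), a call lost without KO acetate 1, KO acetate 2 or KO untreated 1 (up to 0.0681). Cdc6, which loads the MCM rings, fell with acetate by 0.30 in KO cells (adjusted p = 0.0088) and by 0.27 in WT cells (adjusted p = 0.0427), and the WT call was lost without WT acetate 1, WT acetate 2, WT untreated 1, WT untreated 2 or WT untreated 3 (up to 0.161). Cdt1, its partner in loading, was lower in KO untreated than in WT untreated cells (−0.31, adjusted p = 0.0143, 0.0524 without KO untreated 2, and 0.252 without the libraries in which 1 gene held over 3%) and in KO acetate than in WT untreated cells (−0.42, adjusted p = 0.00309).

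Of the 6 helicase activation genes, 3 were lower in KO acetate than in WT untreated cells (50%), 2 in KO acetate than in KO untreated (33.3%), and 1 in WT acetate than in WT untreated (16.7%). In the same order, 13.5%, 21.6% and 7.55% of all genes were called lower. Gins1, a subunit of the GINS complex, had 17.51, 21.04, 20.67 and 19.73 CPM in KO acetate, 17.88, 19.56, 20.08 and 18.69 in WT acetate, 22.92, 28.14, 24.68 and 21.24 in KO untreated, and 24.2, 23.93, 23.86 and 25.51 in WT untreated libraries. All 8 acetate libraries lay below all 8 untreated ones, and the genotypes overlapped on either side. The acetate effect was −0.30 in KO (SE 0.083, adjusted p = 0.00688) and −0.35 in WT cells (SE 0.083, adjusted p = 0.00688). The KO call missed without the libraries in which 1 gene held over 3% of counts (adjusted p = 0.0562). Gins4 was lower in KO acetate than in KO untreated (−0.17, adjusted p = 0.0276) and WT untreated cells (−0.17, adjusted p = 0.0392), calls lost without 3 and 5 single libraries. Cdc45, which joins GINS and MCM in the active helicase, was lower in KO acetate than in WT untreated cells (−0.19, adjusted p = 0.00949). Gins2, Gins3 and Mcm10, which helps to start the helicase, were called in no comparison, with log2 fold changes between −0.17 and 0.11 among them for group against group.

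The 5 RFC subunits, which act as 1 clamp loader, took different courses. Rfc5 had 58.88, 60.7, 65.4 and 68.66 CPM in KO acetate, 60.06, 62.02, 72.35 and 67.76 in WT acetate, 92.32, 80.36, 94.21 and 100.2 in KO untreated, and 80.55, 75.85, 74.66 and 68.8 in WT untreated libraries. Rfc4 had 39.27, 42.53, 39.24 and 44.68 CPM in KO acetate, 51.51, 52.82, 54.54 and 48.87 in WT acetate, 35.82, 41.8, 38.42 and 38.45 in KO untreated, and 49.99, 47.92, 45.07 and 50.32 in WT untreated libraries. Rfc5 was thus highest in KO untreated libraries, the lowest of which just overlapped the highest WT untreated one, whereas Rfc4 separated by genotype, with every KO library below every WT library. Rfc5 was higher in KO untreated than in WT untreated cells (0.29, SE 0.077, adjusted p = 0.00619) and lower in KO acetate than in KO untreated cells (−0.53, SE 0.077, adjusted p = 1.98e-05). Its interaction of −0.34 (SE 0.109, adjusted p = 0.0488) stood in only 4 of 16 fits that left out a library, namely those without KO acetate 4, WT acetate 1, KO untreated 2 and WT untreated 1, with adjusted p up to 0.104 in the others. Rfc4 was lower in KO than in WT cells without acetate (−0.32, SE 0.064, adjusted p = 0.000691) and with it (−0.33, SE 0.064, adjusted p = 0.0239), the second call being lost without KO acetate 1, KO acetate 3, WT acetate 2 or WT acetate 3 (up to 0.101).

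Rfc3 followed acetate more than genotype, with 38.3, 48.06, 41.44 and 45.31 CPM in KO acetate, 45.37, 45.46, 47.88 and 47.09 in WT acetate, 49.34, 57.96, 51.19 and 53.18 in KO untreated, and 58.96, 58.46, 62.5 and 53.32 in WT untreated libraries. Acetate lowered it by 0.29 in KO (SE 0.072, adjusted p = 0.00295) and by 0.33 in WT cells (SE 0.072, adjusted p = 0.00447), and KO acetate lay 0.43 below WT untreated cells (adjusted p = 0.000327). Pcna, the clamp, had 433.5, 451.8, 476.6 and 523.9 CPM in KO acetate, 492, 494, 600.8 and 553 in WT acetate, 653.8, 598.3, 674.7 and 752.2 in KO untreated, and 633.3, 608.2, 611.6 and 604.9 in WT untreated libraries. Every acetate library lay below every untreated one except WT acetate 3, which passed KO untreated 2. Pcna was lower in KO acetate than in KO untreated (−0.51, SE 0.08, adjusted p = 4.97e-05) and than in WT untreated cells (−0.38, adjusted p = 0.00193). Its KO untreated and WT untreated groups differed by 0.12 without a call (adjusted p = 0.238). The reference names 2 Pcna pseudogenes that the count table does not list separately, and whether their reads entered the counts of Pcna was not tested. Rfc2 also fell with acetate in KO cells (−0.27, adjusted p = 0.000553). Rfc1, the large subunit, spanned 153.7 to 183.3 CPM over all 16 libraries and was called in no comparison, with log2 fold changes between −0.04 and 0.07 for group against group.

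**Figure D3:**
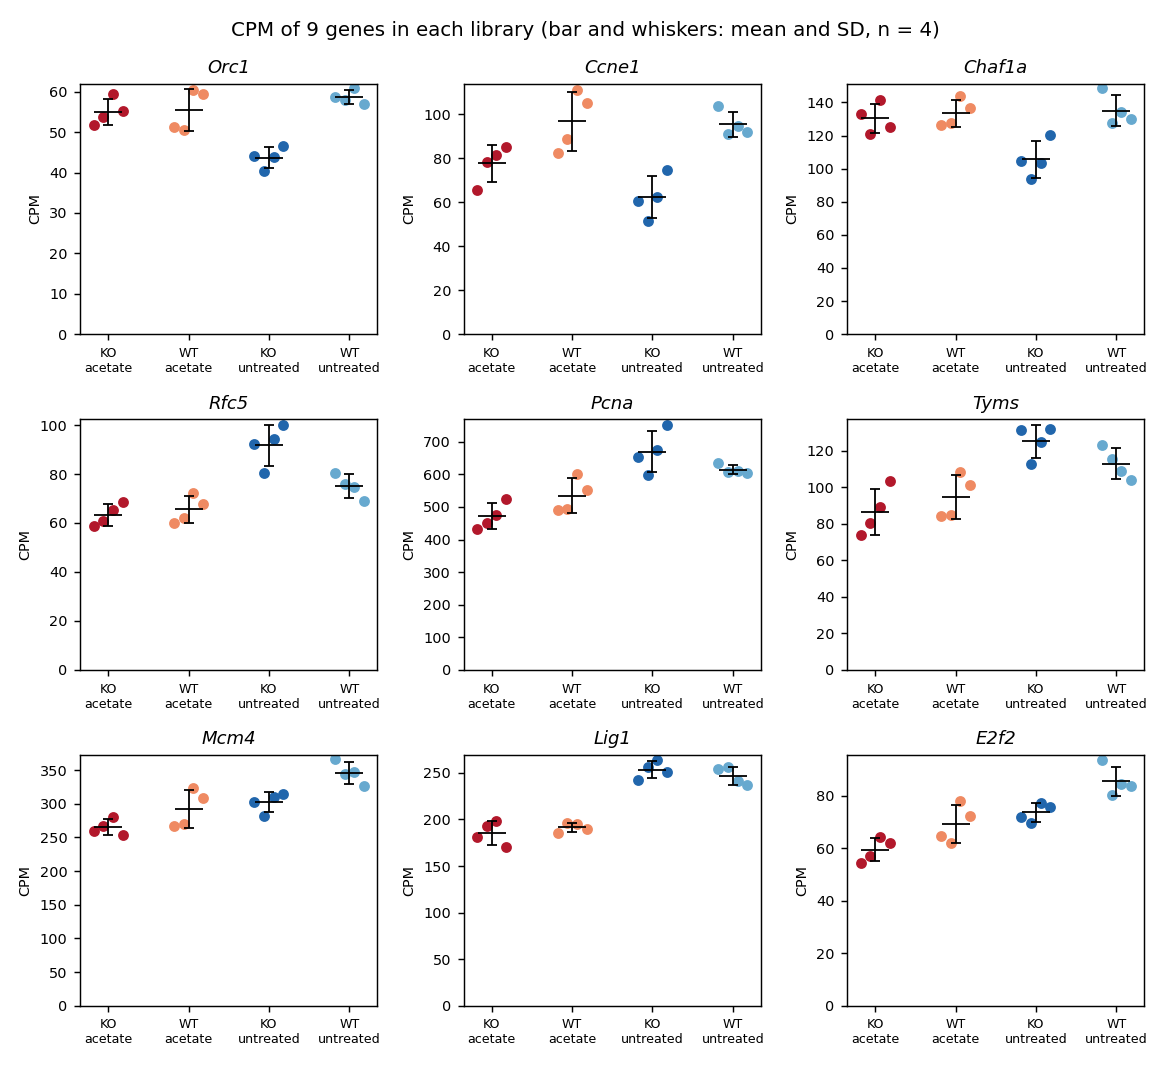
CPM (vertical axes, from 0) of 9 of the genes in each library of the 4 groups (horizontal axes); points are libraries, bars and whiskers the mean and SD of 4. By mean, Orc1, Ccne1 and Chaf1a are lowest in KO untreated, and Rfc5, Pcna and Tyms are highest there. For Pcna and Tyms the KO untreated and WT untreated libraries overlap, without a call. Lig1 is lower in both acetate groups.

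Among the polymerases, the leading-strand and lagging-strand enzymes fell with acetate in both genotypes. Pole, the catalytic subunit of polymerase epsilon, which copies the leading strand, had 93.27, 100.3, 97.24 and 79.13 CPM in KO acetate, 92.79, 93.61, 90.19 and 88.56 in WT acetate, 118.9, 124.5, 128.8 and 127.9 in KO untreated, and 120.9, 117.5, 122.4 and 114.6 in WT untreated libraries. The acetate libraries reached at most 100.3 CPM and the untreated ones at least 114.6 CPM, whatever the genotype. Acetate lowered Pole by 0.43 in KO (SE 0.062, adjusted p = 1.82e-05) and by 0.38 in WT cells (SE 0.062, adjusted p = 0.00047). Pold1, the catalytic subunit of polymerase delta, had 113.4, 133.8, 113.8 and 107 CPM in KO acetate, 118.7, 132.8, 110 and 111 in WT acetate, 144.7, 187.3, 165.5 and 166.8 in KO untreated, and 131.7, 152.9, 144.4 and 138 in WT untreated libraries. It fell with acetate by 0.51 in KO (SE 0.084, adjusted p = 7.97e-05) and by 0.26 in WT cells (SE 0.083, adjusted p = 0.0398), and was higher in KO untreated than in WT untreated cells (0.23, SE 0.083, adjusted p = 0.0384). Each of the last pair of calls stood in only 2 of 8 fits that left out a library: the WT call needed WT acetate 1, 3 and 4 and WT untreated 2, 3 and 4 (up to 0.125), and the KO call needed KO untreated 2, 3 and 4 and WT untreated 1, 3 and 4 (up to 0.133).

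Of the 2 primase genes, Prim2 was called lower in KO untreated than in WT untreated cells and Prim1 was not. Prim2, its large subunit, had 45.2, 48.55, 50.62 and 47.94 CPM in KO acetate, 50.31, 52.04, 54.87 and 54.38 in WT acetate, 46, 40.44, 42.73 and 49.95 in KO untreated, and 57.35, 56.04, 53.6 and 55.45 in WT untreated libraries. Prim1, its catalytic subunit, had 90.2, 95.34, 95 and 98.37 CPM in KO acetate, 97.66, 94.91, 95.41 and 98.1 in WT acetate, 87.07, 87.45, 82.63 and 85.53 in KO untreated, and 94.27, 89.03, 94.56 and 93.91 in WT untreated libraries. Both averaged lowest in KO untreated libraries, which for Prim1 lay below all 12 others. Prim2 was lower in KO untreated than in WT untreated cells (−0.31, SE 0.064, adjusted p = 0.000884), and Prim1 differed by −0.12 (SE 0.046, adjusted p = 0.055). Prim1 was higher in KO acetate than in KO untreated cells by 0.14 (SE 0.046, adjusted p = 0.0166), and its adjusted p was 0.0816 without KO untreated 3. Of the primase-bound polymerase alpha, Pola2 was lower in the same comparison (−0.25, adjusted p = 0.00663), and Pola1 differed by −0.10 (adjusted p = 0.313), with no test of the difference between them.

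Lig1, the ligase that seals Okazaki fragments, had the smallest adjusted p of the 42 genes in each comparison of an acetate group with an untreated group. It had 181.2, 193.4, 198.1 and 169.9 CPM in KO acetate, 185.4, 196, 195.4 and 189.7 in WT acetate, 242.7, 256.2, 264.1 and 250.6 in KO untreated, and 253.7, 256.6, 241.2 and 236.7 in WT untreated libraries. The acetate and untreated libraries did not overlap, and the genotypes did on either side. Acetate lowered Lig1 by 0.45 in KO (SE 0.056, adjusted p = 3.74e-06) and by 0.37 in WT cells (SE 0.056, adjusted p = 0.000245), calls that stood in every alternative run. Fen1, the nuclease that trims the flaps before Lig1 seals them, was called in no comparison, at 96.97 to 109 CPM in KO acetate, 98.77 to 126.5 in WT acetate, 97.65 to 122.7 in KO untreated and 110.8 to 138.7 in WT untreated libraries.

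Beside 13.5% of all genes, deoxynucleotide supply was lower in KO acetate than in WT untreated cells for 4 of its 5 genes (80%). These were the large and small subunits of ribonucleotide reductase, Rrm1 (−0.26, adjusted p = 0.00604) and Rrm2 (−0.35, adjusted p = 0.00794), thymidylate synthase Tyms (−0.38, adjusted p = 0.00863, and 0.0807 without the libraries in which 1 gene held over 3%) and thymidine kinase Tk1 (−0.38, adjusted p = 0.00126). Tyms had 73.53, 80.47, 88.91 and 103.1 CPM in KO acetate, 84.21, 84.99, 108.2 and 101.2 in WT acetate, 131.1, 112.4, 124.8 and 131.7 in KO untreated, and 123.1, 115.6, 108.7 and 103.8 in WT untreated libraries. Its KO acetate libraries lay below all untreated ones, with the highest of them close to WT untreated 4. Tyms fell with acetate in KO cells by 0.53 (SE 0.099, adjusted p = 0.00029). Its KO untreated and WT untreated groups differed by 0.15 without a call (adjusted p = 0.256). Like Pcna, Tyms has a pseudogene named in the reference that the count table does not list. Tk1, which salvages thymidine, separated by genotype without acetate, at 67.49 to 83.25 CPM in KO untreated and 85.91 to 93.7 CPM in WT untreated libraries (−0.29, adjusted p = 0.00522, and 0.117 without the libraries in which 1 gene held over 3%). With acetate its KO libraries also lay below its WT ones, without a call (−0.21, adjusted p = 0.145). Its WT acetate libraries likewise lay below WT untreated ones without a call (−0.17, adjusted p = 0.138). The reductase subunits were also lower in WT acetate than in WT untreated cells (Rrm1 −0.20, adjusted p = 0.0402, and Rrm2 −0.28, adjusted p = 0.0399). The Rrm1 call was lost without any 1 of 6 libraries and the Rrm2 call without any 1 of 7, WT acetate 1, WT acetate 2 and all WT untreated libraries among both, with adjusted p up to 0.133. Dut, which removes dUTP, was called in no comparison, with log2 fold changes between −0.07 and 0.03 for group against group.

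At S phase entry, Ccne1 had the largest difference of any of the 42 genes. This cyclin E gene had 65.78, 78.34, 81.71 and 85.24 CPM in KO acetate, 82.36, 88.76, 111 and 105 in WT acetate, 60.42, 51.58, 62.59 and 74.58 in KO untreated, and 103.6, 91.27, 94.85 and 92.15 in WT untreated libraries. All KO untreated libraries lay below all WT untreated ones, and KO acetate libraries lay between the 2 groups with an overlap into KO untreated. Ccne1 was 1.53-fold lower in KO untreated than in WT untreated cells (log2 fold change −0.62, SE 0.11, adjusted p = 0.000326), a call that stood in every alternative run. It was higher in KO acetate than in KO untreated cells (0.32, SE 0.11, adjusted p = 0.0246), but not without KO acetate 2, 3 or 4 or KO untreated 1, 2 or 3 (adjusted p up to 0.105), nor without the libraries in which 1 gene held over 3% of counts (0.17, adjusted p = 0.368). Its paralogue Ccne2 ranged from 47.95 to 97.66 CPM within KO acetate alone and was called in no comparison.

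E2f2, an activating E2F factor, had 54.46, 57.07, 64.06 and 62.13 CPM in KO acetate, 64.68, 61.91, 77.92 and 72.12 in WT acetate, 72.03, 69.39, 77.2 and 75.72 in KO untreated, and 93.38, 80.36, 84.54 and 83.7 in WT untreated libraries. The groups were ordered KO acetate, WT acetate, KO untreated and WT untreated, with the WT untreated libraries above all 12 others and the other neighbours overlapping. Against WT untreated it was lower in KO acetate (−0.52, SE 0.075, adjusted p = 8.57e-05), WT acetate (−0.31, SE 0.075, adjusted p = 0.00951) and KO untreated cells (−0.22, SE 0.075, adjusted p = 0.03), the last call being lost without KO untreated 1, KO untreated 2 or WT untreated 1 (up to 0.115). E2f1, its close relative, was lower in KO acetate than in KO untreated cells (−0.36, SE 0.086, adjusted p = 0.0022) and had its highest values in KO untreated libraries, 43.42 to 45.32 CPM, against 38.61 to 40.23 CPM in WT untreated libraries, without a call for that pair.

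The chromatin genes moved in opposite directions. Chaf1a, the large subunit of the histone chaperone CAF-1, had 133.1, 121.2, 141.6 and 125.4 CPM in KO acetate, 126.1, 127.4, 143.6 and 136.4 in WT acetate, 104.8, 93.8, 103.4 and 120.5 in KO untreated, and 148.6, 127.7, 133.9 and 129.7 in WT untreated libraries. Chaf1b, the next subunit, had 35.84, 43.13, 43.82 and 47.48 CPM in KO acetate, 46.22, 45.98, 54.1 and 48.91 in WT acetate, 35.78, 36.04, 39.35 and 38.89 in KO untreated, and 51.78, 46.8, 48.04 and 50.11 in WT untreated libraries. Uhrf1, which brings the maintenance methyltransferase to copied DNA, had 361, 353.6, 381.1 and 353.6 CPM in KO acetate, 329.9, 360, 378.3 and 364.9 in WT acetate, 478.4, 449.5, 491.8 and 502.3 in KO untreated, and 427.7, 402.4, 410.1 and 376.6 in WT untreated libraries. KO untreated libraries thus lay below WT untreated ones for both CAF-1 genes and above all other libraries for Uhrf1. In KO untreated against WT untreated cells Chaf1a differed by −0.35 (SE 0.075, adjusted p = 0.00124), Chaf1b by −0.39 (SE 0.077, adjusted p = 0.00071) and Uhrf1 by 0.25 (SE 0.06, adjusted p = 0.00323). Without the libraries in which 1 gene held over 3% of counts the adjusted p was 0.0716 for Chaf1a, 0.0531 for Chaf1b and 0.00703 for Uhrf1. Acetate in KO cells raised Chaf1a (0.30, SE 0.075, adjusted p = 0.00286) and lowered Uhrf1 (−0.41, SE 0.06, adjusted p = 2.38e-05), with no call for Chaf1b (0.18).

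**Figure D4:**
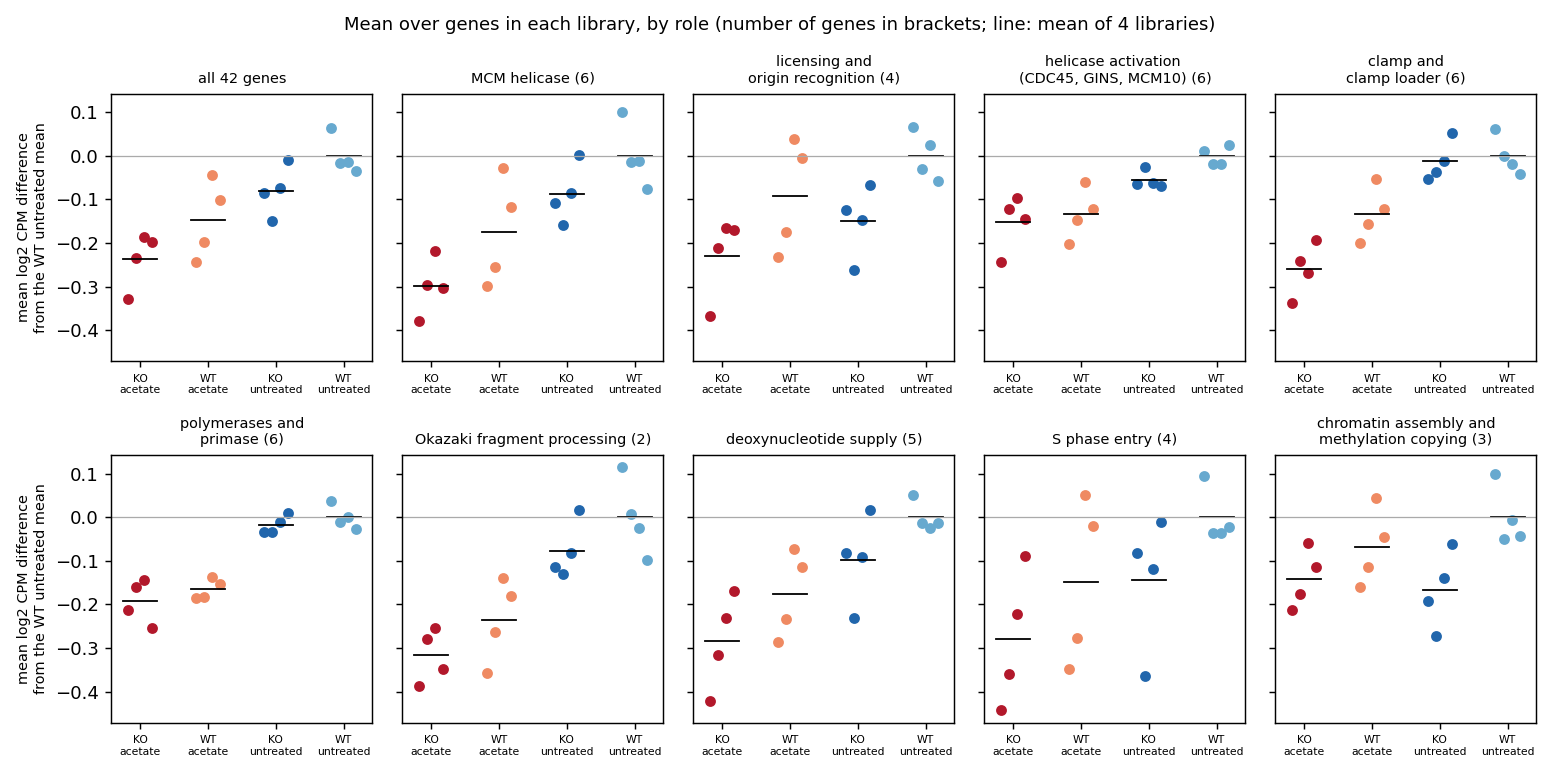
Mean log2 CPM difference from the WT untreated mean (vertical axes) over the genes of each role in each library (points) of the 4 groups (horizontal axes), with the mean of 4 libraries as a line. Over all 42 genes the group means are −0.236 in KO acetate, −0.146 in WT acetate and −0.080 in KO untreated, and the panels differ in where KO untreated stands.

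Other genes of the replication programme, from lists named by function with earlier results of these data known, were counted in the same fits. Of 31 partners at origins and forks, KO untreated against WT untreated cells gave 8 higher (25.8%, beside 18% of all genes) and 4 lower (12.9%, beside 18.6%), and KO acetate against KO untreated cells 0 higher (0 also at an unadjusted p under 0.05, beside 22.1% called) and 11 lower (35.5%, beside 21.6%). With library totals as the only scaling the first pair became 5 higher and 5 lower. Those higher in KO untreated cells included Pole4, a small polymerase epsilon subunit, at 100.1 ± 2.7 CPM in KO untreated and 54.99 ± 1.84 CPM in WT untreated libraries (SD, n = 4 each; 0.86, adjusted p = 5.32e-07), and Cdc7, the kinase that fires origins (0.44, adjusted p = 3.7e-05). Pole4 stood at 47.08 ± 6.12 CPM in KO acetate and 45.99 ± 5.10 CPM in WT acetate libraries (SD, n = 4 each), and its log2 fold change in KO acetate against KO untreated cells was −1.09 (adjusted p = 1.41e-08). Timeless, a fork protection factor, was lower with acetate in both genotypes, by 0.54 in KO (adjusted p = 1.13e-06) and 0.26 in WT cells (adjusted p = 0.00643). DESeq2 called 0 higher and 12 lower of these partners in KO acetate against KO untreated cells, beside 3385 and 3392 of 14980 genes. Library totals as the only scaling left 1 partner higher and 6 lower. Without the libraries in which 1 gene held over 3% of counts, the partners had 0 higher and 10 lower in KO acetate against KO untreated cells. In KO untreated against WT untreated cells they then had 6 higher and 1 lower. Of 15374 genes, 2509 were higher and 2637 lower in the former comparison, and 1577 and 1784 in the latter.

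Mitosis genes were lower in KO acetate than in WT untreated cells in 15 of 18 cases (83.3%, beside 13.5% of all genes), with 0 higher (0 also unadjusted; DESeq2 15 and 0, 10 and 0 with library totals as the only scaling, and 13 and 0 without the libraries in which 1 gene held over 3%). Ccnb2, a mitotic cyclin, averaged 57.88 ± 6.22 CPM in KO acetate and 91.13 ± 4.74 CPM in WT untreated libraries (SD, n = 4 each; −0.66, adjusted p = 4.26e-06), and Cdc20, the activator of the anaphase-promoting complex, 71.69 ± 6.70 CPM in KO acetate and 128.7 ± 11.8 CPM in WT untreated libraries (SD, n = 4 each; −0.85, adjusted p = 5.35e-06). Of the 23 tested genes of E2F, RB and kinase control, 13 were lower (56.5%) and 1 higher in the same comparison, led by Ccna2 (−0.53, adjusted p = 1.15e-05) and Ccnd3 (−0.70, adjusted p = 1.77e-05), the genes of cyclin A and a D-type cyclin. De novo purine and pyrimidine synthesis had 1 of 17 genes higher there, Ctps (0.32, adjusted p = 0.000199), a CTP synthase, and 0 lower by edgeR and 1 by DESeq2, beside 12.9% of all genes higher and 13.5% lower. Within KO cells, acetate raised Paics, a purine synthesis enzyme (0.40, adjusted p = 9.95e-06), in a list with 3 higher (17.6%) and 5 lower (29.4%), near the 22.1% and 21.6% of all genes, which became 6 higher and 0 lower with library totals as the only scaling. The salvage and nucleotide kinase list had 2 of 15 higher (13.3%) and 8 lower (53.3%) in that comparison, among them Nme2, a nucleoside diphosphate kinase (−0.47, adjusted p = 1.67e-05). S phase checkpoint genes had 2 of 13 higher (15.4%) and 7 lower (53.8%), among them Chek1, the kinase that slows S phase (−0.57, adjusted p = 2.74e-05). Histone supply and chromatin partners likewise had 2 of 13 higher and 7 lower, among them Tonsl, which binds new histones (−0.40, adjusted p = 0.000963). With library totals as the only scaling, the higher and lower counts in KO acetate against KO untreated cells were 3 and 4 for salvage, 2 and 5 for the checkpoint and 3 and 3 for the chromatin partners.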

How the data were processed

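The authors deposited 1 table of estimated counts per gene as whole numbers, in which each listed gene had 10 or more counts in 3 or more libraries. Salmon is among the tools in the submitters' processing notes, with no version; build and annotation: not given in the sources used here. A stranded mRNA kit was used, per the labels' protocols. Titles write PHD where the protocols write PDH. Of the Ensembl identifiers, 15221 matched a symbol in the reference table of gene names and 350 did not. All 16 libraries entered 1 edgeR 4.0.16 fit (R 4.3.3, limma 3.58.1; TMM, filterByExpr, robust quasi-likelihood, Benjamini-Hochberg over 14985 genes, called at an adjusted p under 0.05); the common biological coefficient of variation was 0.144. The script was tested on simulated data. DESeq2 1.42.0, other scalings and filters, a replicate block and leaving out libraries were alternatives. All replicate pairs differed beyond sampling noise (chi-square per degree of freedom 6.07 or more). All members are named; values per library are given for up to 5 called genes per direction and comparison with the smallest adjusted p and for those called in the interaction, and up to 3 genes are named per partner list and comparison. Members and lists were chosen with earlier results of these data known.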

Additional observations from a re-analysis of the deposited data

Results flagged for a closer look

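In groups of 4 libraries, 1 stood far from the other 3 for 5 of 168 combinations of gene and group, its gap exceeding Dixon's 95% critical value; chance alone gives about 1 in 20. Mcm10 was at 102.2 CPM in KO acetate 3, with the others at 91.72 to 93.33. Mcm3 was at 353.7 CPM in KO acetate 1, with the others at 388.8 to 392. In WT untreated 1, Mcm6 was at 442.3 CPM (others 417.7 to 421.6) and Pola2 at 113.9 CPM (others 97.75 to 99.64), and that library is 1 of those in which 1 gene held over 3% of counts. Prim1 was at 89.03 CPM in WT untreated 2, with the others at 93.91 to 94.56.

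The acetate effect was called different between the genotypes, by the interaction term of the edgeR fit, for Orc1 (0.416 on the log2 scale, adjusted p = 0.00848) and Rfc5 (−0.339, adjusted p = 0.0488) among the 42 genes. Neither call stood in every alternative, and that of Rfc5 was lost in most fits that left out a single library. Each way the calls made up 2.38% of the 42 genes, beside 6.37% of all genes called higher and 5.54% called lower. Of 130 partner genes, 14 were called in the interaction, 5 higher and 9 lower. The origin and fork genes among them were Pole4 (−0.83, adjusted p = 0.000237), Orc5 (−0.371, adjusted p = 0.00703), Orc4 (−0.327, adjusted p = 0.0251), Cdc7 (−0.313, adjusted p = 0.0278) and Timeless (−0.279, adjusted p = 0.041). Of the nucleotide enzymes, the effect was lower in KO cells for Nme2 (−0.356, adjusted p = 0.0197) and Impdh2 (−0.247, adjusted p = 0.0381) and higher for Ctps2 (0.32, adjusted p = 0.0217) and Paics (0.267, adjusted p = 0.0285). The checkpoint genes were Fanca (−0.385, adjusted p = 0.0119) and Chek1 (−0.386, adjusted p = 0.0436). Higher in KO cells were also the effects on the kinase inhibitor gene Cdkn2d (0.383, adjusted p = 0.0388) and on the mitosis genes Cenpe (0.436, adjusted p = 0.0281) and Bub1b (0.309, adjusted p = 0.0281). Without the libraries in which 1 gene held over 3% of counts, 1 gene was called in each of the origin and fork, salvage and purine and pyrimidine lists.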

How the results depend on the processing

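No member called in the reported fit changed sign in any alternative. Of 26 calls in KO acetate against KO untreated cells 12 stood in every alternative, of 26 in KO acetate against WT untreated cells 15, of 13 in KO untreated against WT untreated cells 6, of 11 in WT acetate against WT untreated cells 5, of 1 in KO acetate against WT acetate cells 0 and of 2 in the interaction 0. The causes of the changes below were not tested. With library totals as the only scaling, members lower numbered 10 (8 higher) in KO acetate against KO untreated, 5 in WT acetate against WT untreated, 17 in KO acetate against WT untreated, 0 in KO acetate against WT acetate (78 genes in all) and 0 (2 higher) in the interaction. RLE scaling, leaving the most abundant gene out of totals and no filter each left 0 lower in the interaction, and at least 1 CPM in at least 4 libraries gave 3. DESeq2 gave 3 lower and 751 genes in all in KO acetate against WT acetate, and 2 higher and 3 lower in the interaction. With only the compared groups fitted, KO untreated against WT untreated had 5 members higher, and KO acetate against WT acetate 0 lower and 16 genes in all. Leaving out the 4 libraries in which 1 gene held over 3% of counts gave 4 lower and 3361 genes in all in KO untreated against WT untreated, 2 lower and 535 in KO acetate against WT acetate, 2 higher in KO acetate against KO untreated, 7 lower in WT acetate against WT untreated, and 0 higher and 1010 in all in the interaction. Leaving out 1 library at a time gave 0 to 2 members lower and 21 to 661 genes in all in KO acetate against WT acetate, 2 to 5 members higher in KO acetate against KO untreated (2 without KO untreated 3), 5 to 17 lower in WT acetate against WT untreated, and 1 to 2 higher and 0 to 3 lower in the interaction. No alternative changed the depth, so its part in the precision was not tested.

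The labels do not say that replicate numbers pair the libraries. Same-numbered libraries of 2 groups correlated between −0.132 and 0.328 in their deviations from the group means. In KO acetate against KO untreated every library correlated best with its own number (0.097, 0.228, 0.23 and 0.237), a hint of pairing from the data and not the design, and in KO acetate against WT acetate the values were 0.279, 0.264, 0.099 and 0.158. With a replicate block, 408 genes were called in KO acetate against WT acetate, and the interaction had 2 members higher and 3 lower. A term for replicates 1 and 2 against 3 and 4 gave 234 genes, 2 members higher and 3 lower.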
